A study of Mus musculus with 12 samples.

Results

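Regulatory and anergic T cell markers were read in mouse CD4+ T cells sorted by an Eomes reporter. The 7 markers, chosen by symbol, were Foxp3, Izumo1r, Nt5e, Nrp1, Lrrc32, Itgb8 and Rnf128, out of 43626 genes in the count matrix. A filter on low counts passed 6 of them, among 13238 genes in all, and Lrrc32 did not pass. Naive splenic CD4+ T cells (CD45RBhi, CD25-) were sorted from donors and injected into adult male Rag2-/- mice, which lack mature lymphocytes. After 3 weeks, CD4+ T cells with and without green fluorescent protein (GFP) were sorted from the spleens of 6 recipients and sequenced as 12 libraries, 3 in each of 4 groups. Every donor carried Eomes flox/GFP, that is, a conditional allele of the T-box factor gene Eomes and a GFP reporter allele. Het GFP+ and Het GFP- cells came from donors without cre, and KO GFP+ and KO GFP- cells from donors with Lck-cre, which is active in T cells. Within a genotype, the replicate number stands for the recipient, so a GFP+ and a GFP- library that share it are a pair from 1 spleen. No source says that each recipient had its own donor.

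FOXP3 is the transcription factor that defines regulatory T cells, which restrain other T cells. Because CD25, the interleukin-2 receptor alpha chain, is on most regulatory T cells, the transferred population was depleted of them, and Foxp3 RNA after transfer can come from cells that remained or from cells that began to express it. Anergy is a state in which a T cell no longer responds to antigen, and it is often recognised by high surface levels of both IZUMO1R, a folate receptor family protein that is also on regulatory T cells, and NT5E (CD73), the enzyme that turns AMP into adenosine. RNF128 (GRAIL) is a ubiquitin ligase associated with anergy. NRP1 (neuropilin) is a coreceptor for semaphorins and vascular growth factor that marks regulatory T cells made in the thymus. LRRC32 (GARP) tethers latent TGF-beta on the surface of regulatory T cells, and ITGB8 is the beta chain of an integrin that activates it.

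Izumo1r and Itgb8 were the members that rose together in Het GFP+ cells, so the 250 bases before their start sites are shown, from RefSeq on GRCm38.p6, 5' to 3' on the gene's strand. Capitals mark the letters AGGTGTG on either strand, which are part of the T-box site that EOMES binds.
Izumo1r, chr9:14903768-14904017, minus strand: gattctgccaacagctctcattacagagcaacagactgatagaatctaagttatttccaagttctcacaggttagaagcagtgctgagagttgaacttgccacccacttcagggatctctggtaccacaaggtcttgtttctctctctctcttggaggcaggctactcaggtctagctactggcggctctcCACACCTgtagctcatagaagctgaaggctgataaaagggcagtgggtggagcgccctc
Itgb8, chr12:119238277-119238526, minus strand: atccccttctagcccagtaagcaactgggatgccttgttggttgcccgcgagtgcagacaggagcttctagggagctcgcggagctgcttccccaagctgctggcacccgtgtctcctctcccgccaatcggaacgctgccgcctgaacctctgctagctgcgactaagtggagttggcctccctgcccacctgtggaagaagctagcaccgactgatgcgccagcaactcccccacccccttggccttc
AGGTGTG was found once in the Izumo1r window, on the opposite strand from base -59 to base -53 relative to the start, and not in the Itgb8 window. Rnf128 also held it once, from base -201 to -195. It occurs in 5.10% of all 32851 windows of this length, and it was added after the windows had been seen. The other letters searched on both strands were the T-box core GTGTGA, in 12.3% of windows, which shares GTGTG with AGGTGTG, and the forkhead core GTAAACA, in 3.17%. Neither was found in the windows of the 6 members that the table holds (Foxp3 has 2 windows), and Lrrc32 had no entry. These matches describe letters and say nothing about binding.

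The libraries differed in depth and in traces of other cells. Total counts were 11492908 to 18167236 in the GFP- and 2116894 to 8608902 in the GFP+ libraries. In Het GFP+ replicate 2 and KO GFP+ replicate 2, 4 features (mt-Rnr1, mt-Rnr2, Gm26917 and an unnamed one) took 58.3% and 54.3% of the counts, against 16.3% to 30.9% elsewhere. Some results are also given without these libraries, while group means, levels per kilobase and correlations include them. Eomes was at 109 ± 17.4 CPM in Het GFP+, 41.2 ± 8.43 in KO GFP+, 5.0 ± 3.70 in Het GFP- and 2.95 ± 1.54 in KO GFP- cells (SD, n = 3; CPM are counts per 1000000 after TMM scaling of the library sizes). The 8 CD4 T cell markers summed to 1829 to 1867 CPM in Het GFP+ against 2436 to 2954 in Het GFP- cells and to 2035 to 2465 CPM in KO GFP+ against 2673 to 2969 in KO GFP- cells, lower in GFP+ cells of 6 of 6 recipients, and both CD8 genes summed to at most 4.56 CPM. The 10 myeloid markers, all of them detected in all 12 libraries, summed to 187, 748 and 1577 CPM in Het GFP- replicates 1, 2 and 3 and to 469, 2090 and 3682 CPM in the same recipients' GFP+ cells. In the KO recipients they summed to 127, 615 and 41.8 CPM in GFP- and to 599, 1245 and 286 CPM in GFP+ cells, so the sum was higher in GFP+ cells of 6 of 6 recipients. Erythroid markers (4.01 to 208 CPM) and platelet markers (1.47 to 12.9 CPM) were also higher in GFP+ cells of 6 of 6 recipients, and dendritic markers (14.7 to 118 CPM) in 3 of 6. The part of these differences between the sorts in the values below was not tested. Y-linked genes summed to at most 32.0 CPM in the Het and to at least 41.5 CPM in the KO libraries. Donor genotype and this difference cannot be told apart, which touches the X-linked Foxp3 and Rnf128 in particular. The X inactivation gene Xist was at 938 to 1816 CPM in the Het libraries and at 574, 499 and 632 CPM in KO GFP- replicates 1 to 3. In KO GFP+ replicates 1 to 3 it was at 967, 55.6 and 1150 CPM, so Xist also differed between the sorts of KO recipients. Its relation to Foxp3 and Rnf128 was not tested.

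Foxp3 RNA was scarce in GFP- cells and close to undetected in Het GFP+ cells. Foxp3 (ENSMUSG00000039521.8, X:7579676-7595243, plus strand, 3989 exonic bases) gave 24, 28 and 41 counts in Het GFP- replicates 1 to 3, or 1.81, 1.90 and 2.32 CPM. In Het GFP+ cells it gave 2, 2 and 1 counts, or 0.266, 0.779 and 0.0972 CPM. The 3 Het GFP+ libraries lay below the 3 Het GFP- ones, and with 5 counts in all the Het GFP+ group was too low to read by the minimum of 10 counts a group. Pooled over libraries, the Het GFP- level was 8.30 times the Het GFP+ level, with a 95% exact interval of 3.43 to 26.2 (this and later intervals and zero limits hold counting error alone). For Het GFP+ replicate 2 alone, the 95% exact interval of 0.0944 to 2.82 CPM included all 3 Het GFP- values. The edgeR log2 fold change of Het GFP+ over Het GFP- was -2.86 (SE 1.36) and did not pass (FDR 0.229, the Benjamini-Hochberg adjusted p over all tested genes). In bulk RNA, fewer Foxp3+ cells and less Foxp3 RNA per cell cannot be told apart.

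In KO recipients, 2 libraries from different recipients stood out for Foxp3. KO GFP- replicates 1, 2 and 3 gave 163, 36 and 66 counts (13.3, 2.19 and 3.27 CPM), and KO GFP+ replicates gave 5, 0 and 89 counts (0.531, 0 and 10.5 CPM). KO GFP- replicate 1 (95% exact interval 11.3 to 15.5 CPM) and KO GFP+ replicate 3 (8.41 to 12.9 CPM) were above each of the other 10 libraries, whose highest value was 3.27 CPM. In recipient 1 the Foxp3 level was therefore higher in the GFP- library and in recipient 3 in the GFP+ library (GFP+ over GFP- ratios of 0.0400 and 3.20). These levels are shares of a library and not amounts per sort: KO GFP+ replicate 3 came from 18000 cells and KO GFP- replicate 3 from 1200000. The 0 in KO GFP+ replicate 2 is that of the shallowest library. Its 95% exact interval runs up to 2.63 CPM and so includes the 2.19 CPM of the GFP- cells of the same recipient. The KO comparison did not pass (log2 fold change -0.56, SE 0.96, edgeR FDR 0.765), and its sign was set by single libraries: it was 0.62 without KO GFP- replicate 1, 0.01 without KO GFP+ replicate 1 and -3.83 without KO GFP+ replicate 3. With the recipient as a block and without KO recipient 3 it was -4.67 (edgeR FDR 0.0100), in a fit where 319 of all tested genes passed. Foxp3 reads are uncertain in part, since its exons overlap those of Ccdc22 (188 counts over 12 libraries) and Gm36995 (40) on the other strand and of Flicr (55) on the same strand, and the strand setting of the counting was not given.

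Lrrc32, the TGF-beta tether of regulatory T cells, was too low to read. Lrrc32 (ENSMUSG00000090958.1, 7:98494222-98501831, plus strand, 3817 exonic bases) gave 2, 0 and 2 counts in Het GFP-, 0, 1 and 0 in Het GFP+, 7, 0 and 2 in KO GFP- and 2, 0 and 13 in KO GFP+ replicates 1 to 3. Its highest values, 1.53 CPM in KO GFP+ replicate 3 and 0.570 CPM in KO GFP- replicate 1, were in the libraries that were highest for Foxp3, and 5 of 12 libraries had none.

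**Figure D1:**
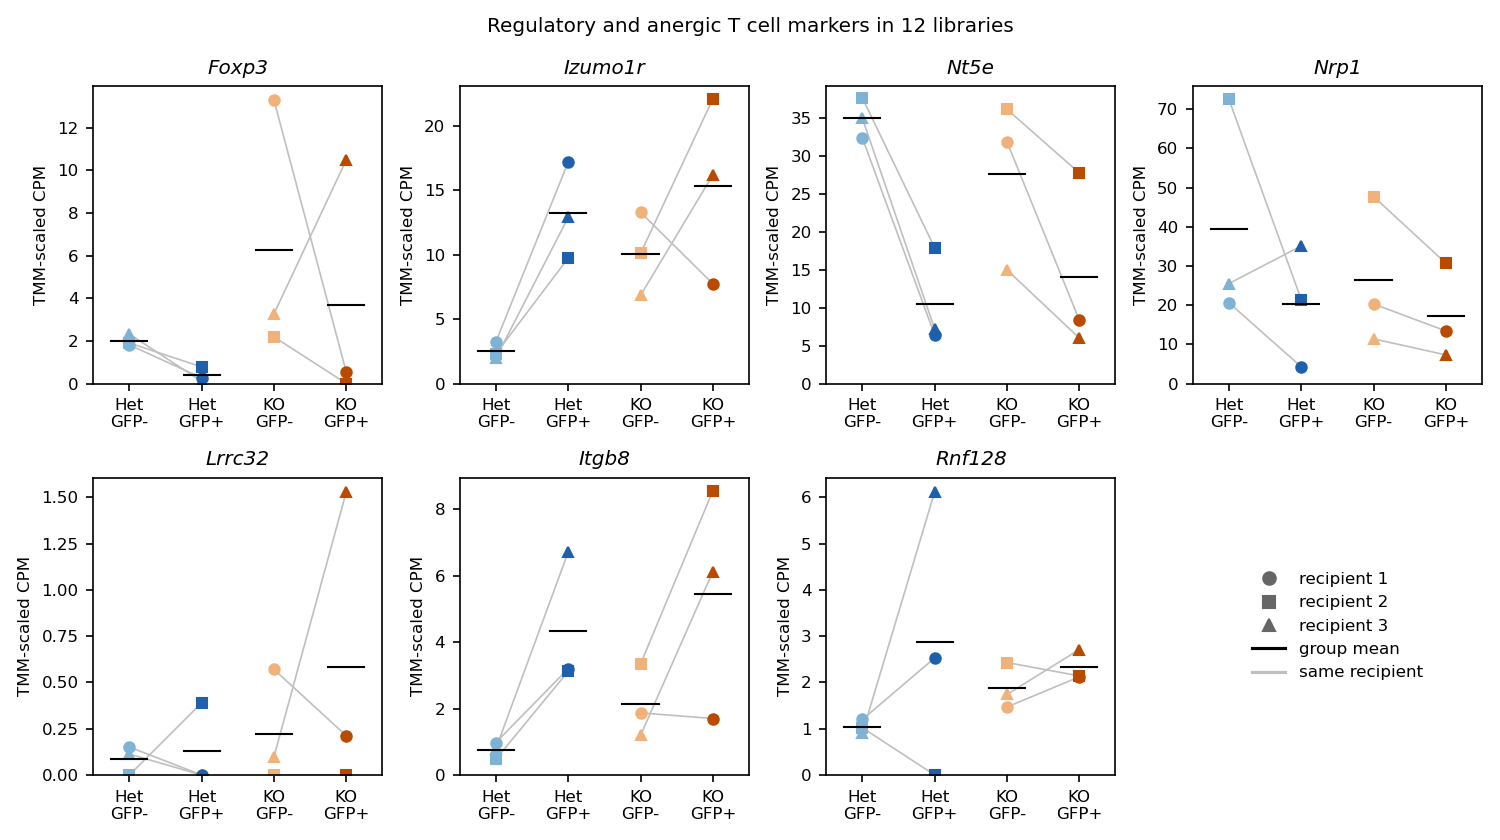
TMM-scaled CPM (linear axis) of the 7 markers in each library, grouped by genotype and GFP sort; marker shapes and grey lines identify the recipient and black bars are group means. Nt5e was lower in the GFP+ cells of every recipient, Izumo1r and Itgb8 were higher in all 3 Het recipients, and Foxp3 was high in KO GFP- replicate 1 and KO GFP+ replicate 3.

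Other genes of regulatory T cells did not share 1 pattern with Foxp3. Itgae, the CD103 integrin chain induced by TGF-beta, had the pattern most like that of Foxp3 over the 12 libraries (Pearson r 0.87 on log2 CPM, among 9820 genes with at least 5 CPM; the libraries share recipients and depth, and r is a description). It was at 17.3 CPM in KO GFP- replicate 1, against 8.44 and 6.65 in the other KO GFP- libraries, and at 6.59 CPM in KO GFP+ replicate 3, against 3.82 and 1.43. Ikzf2, which encodes Helios, a factor of regulatory and of chronically activated T cells, was at 203, 97.0 and 96.0 CPM in Het GFP+ cells, where Foxp3 was near 0, and at 16.9 to 46.6 CPM in the other 9 libraries. Within KO recipients it was highest in the libraries highest for Foxp3, at 44.2 CPM in KO GFP- replicate 1 (25.9 and 21.5 in replicates 2 and 3) and at 46.6 CPM in KO GFP+ replicate 3 (37.0 and 22.1 in replicates 1 and 2). Il2ra (CD25) was at 78.8, 71.1 and 72.8 CPM in Het GFP- and 21.2, 16.4 and 26.3 CPM in Het GFP+ cells. In KO replicates 1 to 3 it was at 35.7, 46.3 and 34.1 CPM in GFP- and 11.4, 19.2 and 25.4 CPM in GFP+ cells. Icos, Capg and Entpd1, described below, were also not highest in both KO libraries that stood out for Foxp3. Icos was highest in replicate 2 of both KO sorts (170 and 105 CPM). Capg was highest in KO GFP- replicate 1 (101 CPM) but in KO GFP+ replicate 2 (56.3 CPM). Entpd1 was highest in KO GFP- replicate 3 (77 CPM) and KO GFP+ replicate 1 (76.3 CPM).

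**Figure D2:**
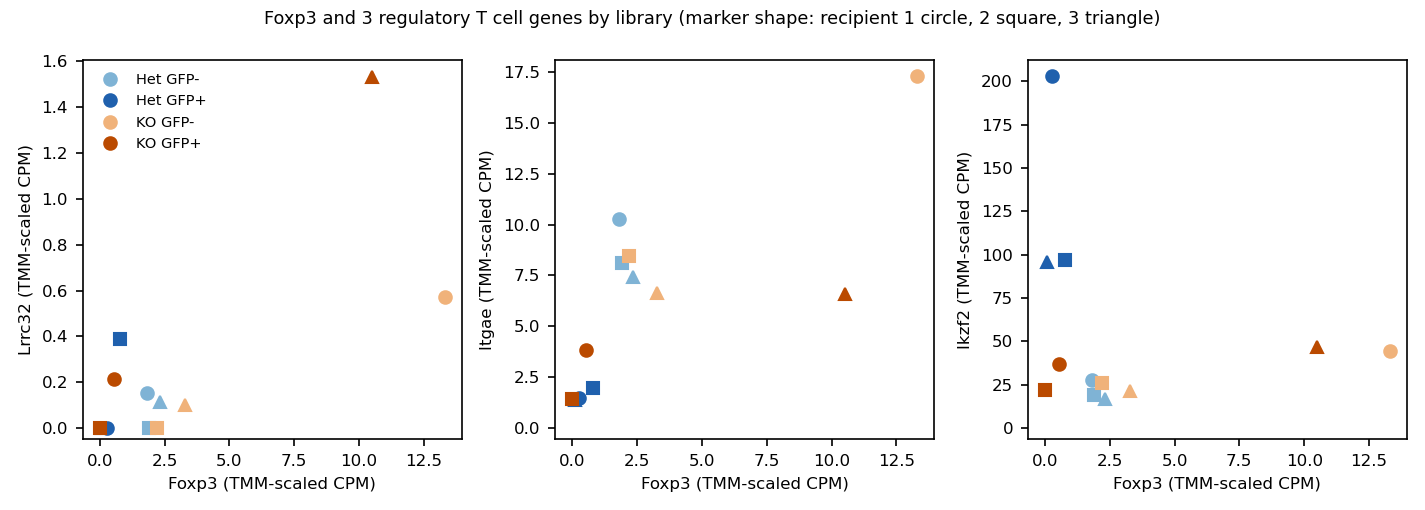
Lrrc32, Itgae and Ikzf2 (vertical axes) against Foxp3 (horizontal axis) in 12 libraries, in TMM-scaled CPM, with colours for groups and shapes for recipients. KO GFP- replicate 1 and KO GFP+ replicate 3 lie to the right at 13.3 and 10.5 CPM of Foxp3, and the 3 Het GFP+ libraries lie at the left with Ikzf2 of 96.0 to 203 CPM.

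The list of 17 regulatory T cell companions, 16 of them tested, had 2 genes that rose and 2 that fell in Het GFP+ against Het GFP- cells (edgeR FDR under 0.05), where 3.45% of all tested genes passed. Ikzf2 rose (log2 fold change 2.65, FDR 0.00513), as did Entpd1 (1.38, FDR 0.0453), the CD39 enzyme that makes AMP from ATP. Il2ra (-1.78, FDR 0.00647) and Icos, a costimulatory receptor (-1.28, FDR 0.0470), fell. The list's median log2 fold change was 0.25, against -0.02 over all tested genes. Capg, an actin-capping protein and with Icos the most abundant of the list, was at 92.7 ± 34.9 CPM in Het GFP- and 48.4 ± 16.9 in Het GFP+ cells (SD, n = 3) and did not pass (FDR 0.0939). Ikzf2 and Il2ra passed with any 1 library left out. Entpd1 did not pass without any single 1 of the 6 (FDR 0.0604 to 0.147), and Icos passed only without Het GFP+ replicate 3 (otherwise FDR 0.0761 to 0.144). Blocked by recipient, both passed with any 1 Het recipient left out (FDR 0.00147 to 0.0113).

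Izumo1r was higher in Het GFP+ than in Het GFP- cells. Izumo1r (ENSMUSG00000031933.13, 9:14885814-14903949, minus strand, 2320 exonic bases) gave 43, 34 and 35 counts in Het GFP- and 129, 25 and 133 in Het GFP+ replicates, or 3.24, 2.31 and 1.98 against 17.2, 9.74 and 12.9 CPM. The groups did not overlap, and the GFP+ cells were higher in 3 of 3 recipients, by 5.31, 4.22 and 6.52 times. The log2 fold change was 2.42 (SE 0.40, edgeR FDR 0.00933), and it was lost only without Het GFP- replicate 2 (FDR 0.0606). In KO recipients, GFP- cells were at 13.3, 10.1 and 6.84 CPM and GFP+ cells at 7.75, 22.1 and 16.2 CPM. There the groups overlapped, 2 of 3 recipients were higher in GFP+ cells, and the change did not pass (log2 fold change 0.54, SE 0.38, edgeR FDR 0.439).

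Izumo1r levels of the GFP- cells lay apart by genotype. All 3 Het GFP- libraries, with a mean of 2.51 ± 0.649 CPM, lay below all 3 KO GFP- ones, with 10.1 ± 3.25 CPM (SD, n = 3). The log2 fold change of Het over KO GFP- cells was -2.0 (SE 0.39), which did not pass edgeR's adjustment (FDR 0.238) but passed DESeq2 (adjusted p 0.00147) and edgeR without the filter on low counts (FDR 0.0118). The GFP+ cells overlapped, with means of 13.3 ± 3.73 CPM in Het and 15.4 ± 7.22 CPM in KO cells (SD, n = 3; log2 fold change -0.12, SE 0.39, edgeR FDR 1). The interaction of GFP and genotype was 1.88 (SE 0.55), with an unadjusted p of 0.00487 and an edgeR FDR of 1, so the reporter difference was not shown to differ between Het and KO recipients.

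Nt5e, the other part of the anergy surface phenotype, was lower in GFP+ cells. Nt5e (ENSMUSG00000032420.7, 9:88327197-88372092, plus strand, 8411 exonic bases) was at 32.4, 37.7 and 35.0 CPM in Het GFP- and 6.39, 17.9 and 7.19 CPM in Het GFP+ cells, from 46 to 618 counts a library. The groups did not overlap. In KO recipients it was at 31.9, 36.2 and 15 CPM in GFP- and 8.38, 27.8 and 6.0 CPM in GFP+ cells, and these groups overlapped. GFP+ cells were lower in 6 of 6 recipients, with GFP+ over GFP- ratios of 0.197, 0.476 and 0.205 in Het and 0.263, 0.768 and 0.399 in KO recipients. Without the recipient in the model neither comparison passed (Het log2 fold change -1.84, SE 0.53, edgeR FDR 0.0818; KO -1.21, SE 0.54, FDR 0.280). With the recipient as a block both did: Nt5e fell, with a log2 fold change of -1.92 (SE 0.30, edgeR FDR 0.00150) in Het and -1.26 (SE 0.30, FDR 0.0197) in KO GFP+ cells, where 22.2% and 17.7% of all tested genes passed. In the fit without a block, leaving out both GFP+ libraries numbered 2 gave -2.37 in Het (edgeR FDR 0.0199), which passed, and -1.94 in KO recipients (FDR 0.187), which did not; without Het GFP+ replicate 2 alone the Het change did not pass (FDR 0.0609). The blocked KO call was lost without recipient 1 (FDR 0.0661) or recipient 3 (FDR 0.143). In both genotypes the highest GFP+ value was that of replicate 2, the library where 4 features took most of the counts.

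The pair of surface markers thus moved in opposite directions in Het recipients. Per exonic length, Izumo1r was at 0.362, 0.222 and 0.205 times the level of Nt5e in Het GFP- cells and at 9.74, 1.97 and 6.52 times it in Het GFP+ cells. In KO recipients the ratio was 1.52, 1.01 and 1.65 in GFP- and 3.35, 2.88 and 9.81 in GFP+ cells. The ratio was higher in GFP+ cells of 6 of 6 recipients. Neither sort of Het recipients had both RNAs at the upper end of their ranges. Among KO libraries, KO GFP+ replicate 2 had the highest Izumo1r of the 12 (22.1 CPM) with the highest Nt5e of the GFP+ libraries (27.8 CPM), and KO GFP- replicate 1 had 13.3 and 31.9 CPM. KO GFP+ replicate 2 was the shallowest library, and its values rest on 31 and 39 counts. Its 95% exact interval for Izumo1r, 15 to 31.4 CPM, overlapped that of Het GFP+ replicate 1, 14.3 to 20.4 CPM. Bulk RNA does not show whether 1 cell carried both.

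Nrp1, the neuropilin marker of thymus-made regulatory T cells, varied widely among recipients. Nrp1 (ENSMUSG00000025810.8, 8:128359073-128505462, plus strand, 5907 exonic bases) was at 20.6, 72.5 and 25.5 CPM in Het GFP- and 4.26, 21.4 and 35.1 CPM in Het GFP+ cells. In KO recipients it was at 20.3, 47.7 and 11.4 CPM in GFP- and 13.4, 30.7 and 7.30 CPM in GFP+ cells. Recipient 2 had the highest GFP- value in both genotypes, and GFP+ cells were lower than GFP- cells in 5 of 6 recipients. The exception was Het recipient 3, at 1.38 times, whose GFP+ library also had the highest myeloid sum, 3682 CPM; the part of myeloid RNA in this value was not tested. Neither comparison passed (Het log2 fold change -0.96, SE 0.75, edgeR FDR 0.451; KO -0.79, SE 0.78, FDR 0.577). Blocked by recipient and without Het recipient 3, Nrp1 fell by 1.95 (edgeR FDR 0.000985) in Het GFP+ cells. In that fit 1817 of all tested genes passed, 682 of them lower.

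Rnf128, the GRAIL ligase, was low in all groups and showed no change that passed. Rnf128 (ENSMUSG00000031438.7, X:139563316-139673145, plus strand, 3464 exonic bases) gave 16, 15 and 16 counts (1.2, 1.02 and 0.907 CPM) in Het GFP- and 19, 0 and 63 counts (2.53, 0 and 6.12 CPM) in Het GFP+ cells. The Het GFP+ values thus ran from 0 (95% exact interval up to 1.44 CPM in that library) to the highest of the 12 libraries. They overlapped the GFP- values. KO GFP- cells were at 1.47, 2.43 and 1.74 CPM and KO GFP+ cells at 2.12, 2.14 and 2.71 CPM. The Het comparison had a log2 fold change of 1.6 (SE 0.70, edgeR FDR 0.197), which was 2.04 (FDR 0.0493) without Het GFP+ replicate 2 and 0.59 without Het GFP+ replicate 3. Blocked by recipient and without Het recipient 2 it was 1.97 (edgeR FDR 0.0327), in a fit where 1070 of all tested genes passed. In KO cells it was 0.32 (SE 0.71, edgeR FDR 0.820).

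Itgb8, the chain of the TGF-beta-activating integrin, was higher in Het GFP+ cells, from few reads. Itgb8 (ENSMUSG00000025321.10, 12:119158022-119238802, minus strand, 11060 exonic bases) gave 13, 7 and 14 counts in Het GFP- and 24, 8 and 69 in Het GFP+ cells, or 0.978, 0.476 and 0.793 against 3.20, 3.12 and 6.71 CPM. The groups did not overlap, and the ratios in the 3 recipients were 3.27, 6.55 and 8.45. The log2 fold change of 2.56 (SE 0.63) just passed (edgeR FDR 0.0453), and it did not pass without any single 1 of the 6 Het libraries (FDR 0.0619 to 0.200). With the recipient as a block it was 2.49 (edgeR FDR 0.00677), and this was lost without Het recipient 3 (FDR 0.0602). The GFP+ library of that recipient had the highest Itgb8 of the Het libraries and the highest myeloid sum of the 12 libraries. The highest Itgb8 of the 12 was in KO GFP+ replicate 2 (8.55 CPM, myeloid sum 1245 CPM). KO GFP+ replicate 3 had 6.12 CPM of Itgb8 with a myeloid sum of 286 CPM. The part of myeloid RNA was not tested. KO GFP- cells were at 1.87, 3.34 and 1.19 CPM and KO GFP+ cells at 1.70, 8.55 and 6.12 CPM, with a log2 fold change of 1.24 (SE 0.60) that did not pass (edgeR FDR 0.299). Recipient 1 was the KO recipient in which GFP+ cells were not higher for Itgb8 (ratio 0.907), nor for Izumo1r (ratio 0.580). Without KO GFP+ replicate 1 the KO comparison of Itgb8 passed (log2 fold change 1.75, edgeR FDR 0.0498). Blocked by recipient and without KO recipient 1, Itgb8 (1.92, edgeR FDR 0.00957) and Izumo1r (1.22, FDR 0.00542) both rose in KO GFP+ cells. In that fit 3929 of all tested genes passed, 1909 of them higher. Leaving out KO GFP+ replicate 1 in the fit without a block also raised the number of all genes that passed in KO recipients from 17 to 1760. Why fewer genes passed with this library was not tested.

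**Figure D3:**
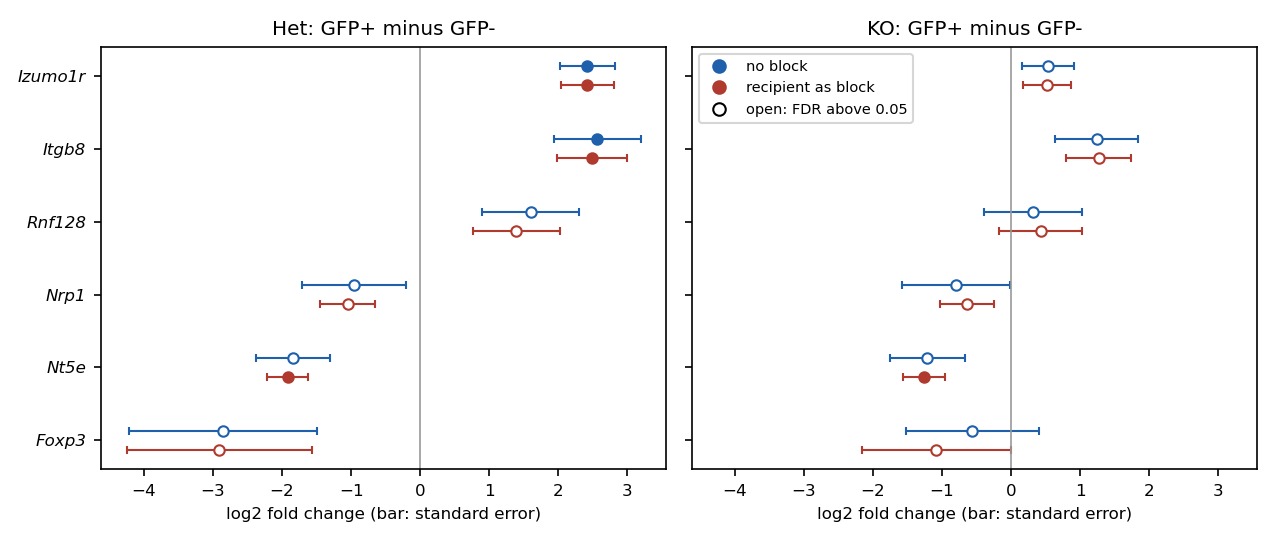
Log2 fold change of GFP+ over GFP- cells (horizontal axis) for the 6 tested markers in Het (left) and KO (right) recipients, with bars of 1 standard error, without a block (blue) and with the recipient as a block (red); filled points passed FDR 0.05. Izumo1r and Itgb8 are filled in both fits and Nt5e in the blocked fit of Het recipients, and in KO recipients Nt5e in the blocked fit is the single filled point.

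Of the 7 markers, 2 passed in Het GFP+ against Het GFP- cells, both higher, where 1.82% of all tested genes passed in that direction. DESeq2 passed these and Nt5e, where 9.03% of all tested genes passed. Non-overlap was seen for 4 markers (Izumo1r and Itgb8 higher, Nt5e and Foxp3 lower), where 27.3% of all tested genes did not overlap. In the authors' deposited table of this comparison, Izumo1r was listed with a log2 fold change of 2.17 (adjusted p 1.2e-08), Itgb8 with 1.99 (0.000291), Nt5e with -1.62 (6.61e-05) and Foxp3 with -1.72 (0.0112), and the other 3 were not listed. In KO GFP+ against KO GFP- cells, 0 markers passed in edgeR without the block and 0 in DESeq2, where 0.128% and 3.04% of all tested genes passed. In that edgeR fit 1 marker (Nt5e) was at an unadjusted p under 0.05, as were 17.5% of all tested genes. The KO groups overlapped for all 7, where 20.3% of all tested genes did not overlap. The authors' deposited table of the KO comparison listed none of the 7.

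None of the markers passed between the GFP+ cells of the genotypes. In Het GFP+ against KO GFP+ cells, 0 markers passed in edgeR and 0 in DESeq2, where 0.106% and 0.703% of all tested genes passed. In edgeR 1 marker (Foxp3) was at an unadjusted p under 0.05, as were 6.22% of all tested genes. All 7 had overlapping groups, where 7.48% of all tested genes did not overlap. This comparison shares its libraries with both reporter comparisons. The Foxp3 log2 fold change of -3.91 (SE 1.36, edgeR FDR 0.577) became -0.65 without KO GFP+ replicate 3. The other log2 fold changes were -0.29 (SE 0.57) for Nt5e, 0.42 (SE 0.80) for Nrp1, -0.18 (SE 0.60) for Itgb8 and 0.43 (SE 0.71) for Rnf128, each with an edgeR FDR of 1. Standard errors of this size leave room for changes in either direction. The authors' deposited table of this comparison did not list any of the markers.

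Between Het and KO GFP- cells, 0 markers passed in edgeR, as did 0% of all tested genes (695 genes were at an unadjusted p under 0.05). DESeq2 passed 1 marker, Izumo1r, among 45 genes (0.34%), as did edgeR without the filter (0.11% of its genes), and Izumo1r and Itgb8 were at an unadjusted p under 0.05 in edgeR. Izumo1r, Itgb8 and Rnf128 were lower in all 3 Het libraries than in all 3 KO libraries, where 5.89% of all tested genes were. Itgb8 had a mean of 0.749 ± 0.254 CPM in Het and 2.13 ± 1.10 CPM in KO GFP- cells, and Rnf128 1.04 ± 0.150 and 1.88 ± 0.497 CPM (SD, n = 3). Their log2 fold changes were -1.50 (SE 0.61, edgeR FDR 0.935) and -0.85 (SE 0.69, FDR 1). The interaction of GFP and genotype passed for 0 markers in edgeR, with or without the block, and 0 in DESeq2. Of all tested genes 0.00755% passed in edgeR, 0.0755% with the block and 0.0831% in DESeq2. In edgeR without the block 1 marker (Izumo1r) was at an unadjusted p under 0.05, as were 1.99% of all tested genes.

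Levels between genes were compared per exonic kilobase. In Het GFP- cells Nrp1 (6.70 ± 4.85 CPM per kb) and Nt5e (4.17 ± 0.311) led with overlapping ranges. Izumo1r (1.08), Foxp3 (0.504), Rnf128 (0.301) and Itgb8 (0.0677) followed, each without overlap with its neighbours. In Het GFP+ cells Izumo1r led at 5.73 ± 1.61 CPM per kb, followed by Nrp1 (3.43 ± 2.61), Nt5e (1.25 ± 0.766), Rnf128 (0.833) and Itgb8 (0.392), and each neighbouring pair overlapped. Foxp3 was next at 0.0955, below the range of Itgb8. In KO GFP- cells Nrp1 (4.48), Izumo1r (4.35), Nt5e (3.29), Foxp3 (1.56) and Rnf128 (0.542) overlapped from neighbour to neighbour, and Itgb8 (0.193) lay apart below Rnf128. In KO GFP+ cells the order was Izumo1r (6.62), Nrp1 (2.90), Nt5e (1.67), Foxp3 (0.919), Rnf128 (0.670) and Itgb8 (0.493), with overlap between all neighbours. Lrrc32 had the lowest mean per kilobase in every group, from 0.0230 to 0.152.

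Over the 12 libraries, Izumo1r and Itgb8 varied together (Pearson r 0.89 on log2 CPM), as did Nt5e and Nrp1 (r 0.70), while Izumo1r and Nt5e had r -0.52 and Foxp3 and Izumo1r r -0.24. These values are descriptions over libraries that share recipients, sort and depth. The genes most like each marker were Zmym3 (r 0.93) and Rilpl2 (0.92) for Izumo1r, and Tceanc2 (0.95), Tcf7 (0.92), a factor of naive and memory T cells, and Tnfsf11 (0.91), the RANK ligand, for Nt5e. They were Pik3r2, 2900026A02Rik and Tacc2 (each 0.95) for Itgb8, Larp1b (0.87), Ltb4r1 and Rab3d (both 0.86) for Nrp1, Dcakd (0.92), Agfg1 (0.87) and Alg6 (0.83) for Rnf128, and, after Itgae, Rbbp5 and Mfhas1 (both 0.84) for Foxp3.

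Of 17 genes that accompany anergy and long stimulation, all tested, 5 rose and 0 fell in Het GFP+ against Het GFP- cells in edgeR without the block (7 were at an unadjusted p under 0.05; of all tested genes 3.45% passed and 23.2% were at such a p), with a median log2 fold change of 0.55 against -0.02 over all tested genes. Tox, a factor of chronically stimulated T cells, was at 11.0, 3.74 and 4.82 CPM in Het GFP- and 172, 68.2 and 201 CPM in Het GFP+ cells (log2 fold change 4.51, FDR 0.00128). The inhibitory receptor genes Pdcd1 (2.01, FDR 0.00818) and Lag3 (2.42, FDR 0.0219), the nuclear receptor gene Nr4a2 (3.07, FDR 0.0119) and the ubiquitin ligase gene Cblb (1.08, FDR 0.0389) also rose. Tox, Pdcd1 and Nr4a2 passed with any 1 library left out. Lag3 was lost without Het GFP- replicate 2 (FDR 0.0664), Het GFP- replicate 3 (0.0516) or Het GFP+ replicate 3 (0.0526), and Cblb without any 1 of the Het GFP- libraries or Het GFP+ replicate 3 (0.0619 to 0.161), while both passed in the blocked fit with any 1 Het recipient left out. In that fit Itch, a ubiquitin ligase gene, fell (-0.42, edgeR FDR 0.0367), which was lost without any 1 recipient (0.0921 to 0.245). Dgkz and Dgka, diacylglycerol kinases that limit antigen receptor signals and the most abundant of the list, had log2 fold changes of 0.87 (FDR 0.154) and -0.11 (FDR 0.861). In KO recipients 0 of the 17 passed in edgeR, with 6 at an unadjusted p under 0.05 and 3 in DESeq2, where 17.5% and 3.04% of all tested genes were. In the blocked fit, where 17.7% of all tested genes passed, 4 rose, Tox (1.79), Nr4a2 (2.0), Dgkz (1.01) and Egr2 (1.05), and Btla fell (-0.76), with edgeR FDR of 0.00257 to 0.0304. Tox and Nr4a2 passed with any 1 KO recipient left out, Dgkz and Egr2 not without recipient 2 or 3 (FDR 0.0505 to 0.117), and Btla not without any of the 3 (0.0512 to 0.125).

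The 8 markers of type 1 regulatory (Tr1) cells, which make interleukin-10 without FOXP3, had 1 gene that rose and 2 that fell in Het GFP+ cells, where 3.45% of all tested genes passed, with a median log2 fold change of 0.30 against -0.02 over all tested genes. Il10 was at 1.13, 0.136 and 1.53 CPM in Het GFP- and 17.7, 1.95 and 30.7 CPM in Het GFP+ cells (log2 fold change 4.18, edgeR FDR 0.0347). It was lost without any 1 Het GFP- library, Het GFP+ replicate 1 or Het GFP+ replicate 3 (FDR 0.0546 to 0.14), and in the blocked fit it passed with any 1 Het recipient left out. In KO GFP+ cells Il10 was at 0.531, 0.713 and 2.47 CPM, against 3.01, 0.729 and 1.09 CPM in KO GFP- cells. Ahr, the aryl hydrocarbon receptor gene, fell in GFP+ cells of both genotypes (log2 fold change -2.10, FDR 0.00647, in Het and -2.37, FDR 0.0187, in KO, where 0.128% of all tested genes passed). Itga2 encodes the CD49b integrin chain, a surface marker used with others to sort Tr1 cells. It fell by 1.59 in Het GFP+ cells (FDR 0.0208). This was lost without Het GFP- replicate 1 (FDR 0.0542), Het GFP- replicate 2 (0.107) or Het GFP+ replicate 2 (0.0571) but not in the blocked fit without any 1 Het recipient. Cd226 and Maf, the most abundant of the list, had log2 fold changes of -0.79 (FDR 0.214) and 0.08 (FDR 0.897).

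Around Nt5e, the adenosine pathway list had 7 genes, of which 5 were tested, 1 was too low and 1 was not matched by symbol. Entpd1, the step before NT5E, was its 1 gene that rose in Het GFP+ cells, where 3.45% of all tested genes passed, while Nt5e was lower. Dpp4, the most abundant of the list, had a log2 fold change of 0.11 (edgeR FDR 0.762). In the blocked fit, where 22.2% of all tested genes passed, Adora2a, an adenosine receptor gene, rose as well, from 37.9 ± 8.07 to 65.3 ± 16.8 CPM (SD, n = 3; edgeR FDR 0.00354).

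Around Itgb8 and Lrrc32, the TGF-beta list had 18 genes, 15 tested, with a median log2 fold change of -0.21 in Het GFP+ against Het GFP- cells and 3 genes that passed, where 3.45% of all tested genes did. Ltbp4, a latent TGF-beta binding protein gene, rose (2.35, edgeR FDR 0.0416), and 2 genes fell, Tgfb3 (-2.11, FDR 0.00798) and Itgae (-2.49, FDR 0.0179). Tgfb3 passed with any 1 library left out, Ltbp4 only without Het GFP+ replicate 3 (otherwise FDR 0.0856 to 0.169), and Itgae was lost without Het GFP- replicate 2 (FDR 0.0664), Het GFP+ replicate 1 (0.0608) or Het GFP+ replicate 3 (0.0625). In the blocked fit Itgae passed with any 1 Het recipient left out, and Ltbp4 did not without recipient 1 (FDR 0.163) or 2 (0.0801). Itgav, the alpha chain that pairs with ITGB8, was at 101 CPM in both Het sorts (log2 fold change 0.01, edgeR FDR 0.991). Furin, the protease that cleaves pro-TGF-beta, and Tgfbr2, a TGF-beta receptor gene, were the most abundant of the list and had log2 fold changes of -1.01 (FDR 0.129) and -0.40 (FDR 0.235).

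Around Nrp1, the list of neuropilin partners had 10 genes, 7 tested, and 0 passed in Het GFP+ against Het GFP- cells in edgeR or DESeq2, with 3 at an unadjusted p under 0.05, where 23.2% of all tested genes were, and a median log2 fold change of 0.94 against -0.02 over all tested genes. In the blocked fit, where 22.2% of all tested genes passed, 3 rose: Nrp2, the related neuropilin gene (1.58, edgeR FDR 0.0495), Plxna3, a plexin that signals for neuropilins (1.5, FDR 0.00985), and the growth factor gene Vegfa (2.61, FDR 0.00787). Each was lost without Het recipient 2 (FDR 0.212, 0.0529 and 0.0661), Nrp2 also without recipient 1 (0.0646) or 3 (0.116), and Plxna3 also without recipient 3 (0.0536). Sema4a, a semaphorin gene, and Plxnd1, another plexin gene, were the most abundant, with log2 fold changes of 0.33 (FDR 0.376) and -0.36 (FDR 0.504). Sema3a, which encodes the best known neuropilin ligand, was among the 3 genes too low to test.

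In the blocked fit more genes of the other lists passed in Het recipients, 4 higher and 5 lower of the 16 regulatory companions, 7 and 1 of the 17 anergy genes, 2 and 2 of the 8 Tr1 markers, and 2 and 4 of the 15 TGF-beta genes, where 22.2% of all tested genes passed. In KO recipients, where 17.7% passed, they were 0 higher and 6 lower regulatory companions, 0 and 2 Tr1 markers, 1 and 4 TGF-beta genes, 1 and 0 adenosine genes, and 2 and 0 neuropilin partners. Between the GFP+ cells of the genotypes 0 genes of any of the 6 lists passed in edgeR, where 0.106% of all tested genes passed. DESeq2 passed 1 regulatory companion, 2 anergy genes and 2 Tr1 markers, where 0.703% of all tested genes passed. The interaction passed in the blocked fit for Ikzf2 (2.32, edgeR FDR 0.0365) and Tox (2.72, FDR 0.0363), where 0.0755% of all tested genes passed. For both genes the difference between GFP+ and GFP- cells was larger in Het than in KO recipients. Without the block neither passed in edgeR (FDR 1), but both passed in DESeq2 (adjusted p 0.0206 for Ikzf2 and 0.0303 for Tox) and in edgeR without the filter (FDR 0.0301 for both). In the blocked fit neither passed without any 1 Het recipient or without KO recipient 2 (FDR 0.0539 to 0.108).

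**Figure D4:**
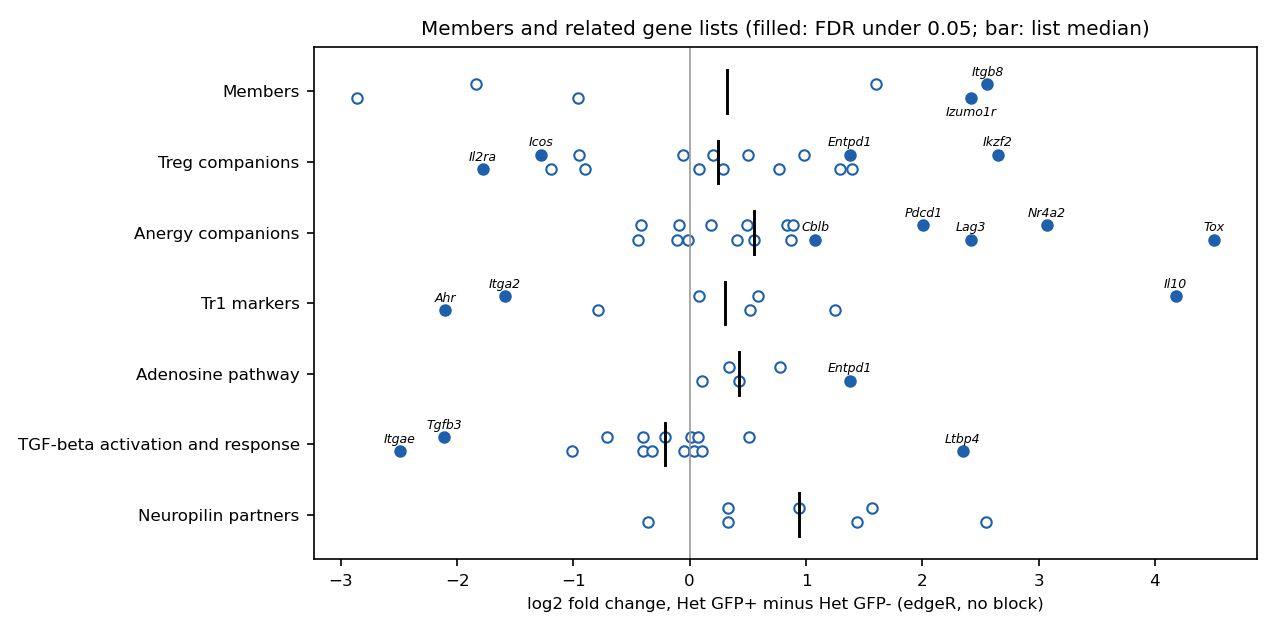
Log2 fold change of Het GFP+ over Het GFP- cells (horizontal axis) for the tested markers and 6 related gene lists (rows); each point is 1 gene, filled points passed FDR 0.05 without a block, and vertical bars are list medians. Tox, Il10 and Nr4a2 lie farthest to the right among filled points and Itgae, Tgfb3 and Ahr farthest to the left.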

How the data were processed

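RNA from CD4+ T cells sorted from 6 recipient spleens was sequenced after depletion of ribosomal RNA with a stranded total RNA kit, per the labels' protocols. The submitters' processing notes name bcl2fastq 1.8.4, TopHat2 2.0.13, featureCounts 1.5.0-p1, DESeq2 1.6.1 and the mm10 build; the strand setting is not given in the sources used here. The authors deposited unnormalized whole-number counts per gene for 12 libraries, unpooled, with exon coordinates per the file headers. They also deposited DESeq2 tables, whose columns are, per the file headers, a mean of normalized counts (a signal), a log2 fold change and its SE, a test statistic (a score) and p-values with adjusted p-values; these were used for description only.

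Genes were tested with edgeR 4.0.16 (quasi-likelihood F-test, R 4.3.3) on the deposited counts, with TMM scaling, a filter on low counts (filterByExpr, minimum count 10, minimum total 15), 1 mean per group over 12 libraries, and two-sided p-values adjusted over all 13238 tested genes (Benjamini-Hochberg) and genes at FDR under 0.05 passed. The comparisons, 5 in all, were GFP+ against GFP- cells in each genotype, Het against KO in each sort, and their interaction. Marker sums of 3 against 3 libraries cannot give an exact permutation p below 0.1. CPM are TMM-scaled, the SE is the log2 fold change over the square root of F, and intervals cover counting error only.

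Same-numbered libraries of a genotype share a recipient, as series design notes state. Checked on deviations from group means, such pairs gave r 0.547, 0.241 and 0.617 (Het) and 0.507, 0.506 and 0.263 (KO). A block for recipient was 1 alternative. Other alternatives were DESeq2 1.42.0, RLE scaling, no filter, only the compared groups, and each library left out. Leaving out recipients under the block, leaving out both GFP+ libraries numbered 2, and the motif AGGTGTG were added after seeing the data. The fits were tested on simulated data. The markers, lists and tests were chosen with earlier results of these data known. Named genes are the markers, Eomes, list genes that passed in Het GFP+ against Het GFP- or KO GFP+ cells, the 2 most abundant of each list, and the 3 genes most like each marker (1 of them is not reported here); other genes named (Itgav, Adora2a, Sema3a, and those named for the blocked fit) were chosen after their values were seen.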

Additional observations from a re-analysis of the deposited data

How the results depend on the processing

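The number of genes that passed depended on the tool and the model. In Het GFP+ against Het GFP- cells 457 genes passed in edgeR, 1196 in DESeq2, 897 without the filter, 2944 with the recipient as a block and 286 without both GFP+ libraries numbered 2. In Het GFP+ against KO GFP+ cells the 14 genes became 93 in DESeq2, 72 without the filter, 2 with only both groups fitted and 4 without the libraries numbered 2. In KO recipients the 17 genes became 403, 201, 10, 2349 (block) and 3 in the same order. Between the GFP- sorts the 0 genes became 45 in DESeq2, 26 without the filter and 7 with only both groups fitted. For the interaction the 1 gene became 11, 6, 10 (block) and 0 without the libraries numbered 2. Of the markers, DESeq2, no filter, only both groups fitted and the block each raised the calls in Het recipients from 2 to 3 by adding Nt5e, and without the libraries numbered 2 Nt5e passed in place of Itgb8. The block added 1 call in KO recipients, and DESeq2 and the unfiltered fit each added 1 between the GFP- sorts.

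With 1 library or, under the block, 1 recipient left out, the genes that passed ranged from 88 (without Het GFP- replicate 2) to 1817 in Het recipients, from 3 to 7 between the GFP+ sorts, from 5 to 3929 in KO recipients, from 0 to 7 between the GFP- sorts and from 0 to 19 for the interaction, and the markers that passed ranged from 0 to 4 in Het and from 0 to 2 in KO recipients. Changes of sign were seen in values that did not pass, except that the lower end of the Foxp3 range in KO recipients did. Between the GFP+ sorts the log2 fold changes ranged from -0.51 to 0.15 for Izumo1r, -0.83 to 0.42 for Nt5e, -0.39 to 0.95 for Nrp1, -0.72 to 0.17 for Itgb8 and -0.62 to 0.86 for Rnf128, and Izumo1r was at 0.32 and Itgb8 at 0.34 without the libraries numbered 2. In KO recipients Foxp3 ranged from -4.67 (FDR 0.0100) to 0.91. Between the GFP- sorts Nrp1 ranged from -0.22 to 1.30. For the interaction Foxp3 ranged from -3.82 to 1.75, Nt5e from -1.16 to 0.09, Nrp1 from -1.35 to 0.57 (0.35 without the libraries numbered 2) and Rnf128 from -0.11 to 1.72. The causes were not tested. Of 443 marker values under alternatives, 390 kept their direction and side of the threshold. Counts were few for Foxp3 in Het GFP+ cells (5 in all), for Lrrc32 (1 to 15 a group, under 10 in 3 of 4 groups) and for Itgb8 and Rnf128 (at most 69 in a library).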
